A study of Rattus norvegicus with 4 samples.

Results

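Rassf4, the other measured RASSF genes and the core genes of the Hippo pathway were followed on 4 one-colour Affymetrix arrays of rat telencephalon, the front part of the embryonic forebrain. The members were all probe sets whose single gene symbol was Rassf1, Rassf4, Rassf5, Rassf7, Rassf8, Stk3, Stk4, Lats1, Sav1 or Yap1, 16 of the 31042 probe sets that are not controls. They stand for 9 of the 10 genes, out of 14217 named genes in all, because 0 probe sets carried the single symbol Yap1, so Yap1 was not analysed here. A probe set is a group of short array probes that together give 1 value for a transcript. The genes were selected on the difference between mutant and wild type on these same arrays. Every difference of a member is therefore a description without a test.

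Both genotypes were of Sprague-Dawley background and were taken at E11.5, the midday of the vaginal plug counting as E0.5. The wild-type group and the Pax6 mutant group (rSey2/rSey2, homozygous for an allele of the transcription factor Pax6) had 2 arrays each, and no further allele or agent is named. The design text speaks of 13 telencephalons, so an array stands for pooled embryos, although the text does not settle whether each array had a pool of its own. The arrays of a genotype are called biological replicates, and the litters are not named, so the spread between arrays may in part be technical. In pooled tissue, fewer cells of a type and less RNA per cell cannot be told apart.

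RASSF proteins are scaffolds with a Ras-association domain, which can bind small GTPases of the Ras and Rap families. In the C-terminal class (Rassf1 to Rassf6) this domain is followed by a SARAH domain, a short helix that pairs with the SARAH domains of the kinases Stk3 and Stk4, also called MST2 and MST1, and of their adaptor Sav1. The N-terminal class (Rassf7 to Rassf10) lacks the SARAH domain. In the Hippo pathway, Stk3 and Stk4 with Sav1 activate the kinases Lats1 and Lats2, which phosphorylate the coactivators Yap1 and Wwtr1 (TAZ) and so keep them away from the TEAD transcription factors in the nucleus. In the neural tube the pathway is known for limiting the number of progenitor cells.

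Values are log2 GCRMA values per probe set, as the authors deposited them, and ran from 2.07 to 16.13. A probe set was called dim, and not tested, where its 4 arrays averaged less than 3.21, the 40th percentile, which left 18625. limma with Benjamini-Hochberg adjustment called 0 of these at an adjusted p of 0.05, with 680 at an unadjusted p under 0.05. Precision is limited by how few arrays there are. Of 8 markers of telencephalic neuroepithelium 7 were on the array and all 7 passed the dim level, among them Lhx2, a LIM-homeodomain factor of the telencephalon, at 13.05 and 13.01 in wild type and 13.42 and 13.24 in the mutant. Pax6 was at 11.75 and 11.85 in wild type and 11.78 and 11.63 in the mutant. The sources used here do not say where the rSey2 lesion lies relative to that probe set, so this level does not check the genotype labels.

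The 250 bases upstream of the annotated start of Rassf4 are shown because this gene carried the largest difference among the members. The sequence is that of RefSeq on the build GRCr8, chr4:151604884-151605133, minus strand, and the capitals mark GGGCGG, the core of a GC box, on either strand.

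Rassf4: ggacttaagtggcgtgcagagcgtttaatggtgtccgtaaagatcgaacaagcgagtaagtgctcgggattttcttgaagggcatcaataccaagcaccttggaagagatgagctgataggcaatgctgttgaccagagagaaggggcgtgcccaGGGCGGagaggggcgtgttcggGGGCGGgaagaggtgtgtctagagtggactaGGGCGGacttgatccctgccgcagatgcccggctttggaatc

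This window held 3 GC box cores, which begin 95, 73 and 42 bases before the start. Of all 33469 RefSeq promoter windows of this length, 30.5% held at least 1. Rassf4 was not particular in this. Among the members with a window, 6 of 7 genes held a GC box core in at least 1 window. The same was true of 11 of the 13 genes with a window among the listed targets of Yap1. The window of Rassf4 held neither GGAATG, the core bound by TEAD factors, which 12.1% of windows held on either strand, nor TTCACGC, part of the site bound by the paired domain of Pax6, which 1.06% held. These matches describe letters in 1 window and no binding.

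Rassf4, a C-terminal RASSF protein that can bind Ras and carries a SARAH domain, was lower in the mutant on all 3 of its probe sets. On the brightest, 1378321_at, the values were 6.55 and 6.93 in wild type and 5.73 and 5.58 in the mutant. Both mutant arrays lay below both wild-type arrays, with means of 6.74 ± 0.27 and 5.65 ± 0.11 (SD, n = 2), a difference of -1.09 (SE 0.17), or 2.13-fold lower.

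On the Rassf4 probe set 1374284_at the values were 6.77 and 6.71 in wild type and 5.49 and 5.20 in the mutant. The wild-type arrays differed by less than the mutant arrays, and the groups did not overlap. The difference was -1.40 (SE 0.14), or 2.64-fold lower. On the dimmest Rassf4 probe set, 1391593_at, the values were 5.72 and 5.80 in wild type and 4.54 and 4.51 in the mutant. The groups lay far apart for their spread, with a difference of -1.24 (SE 0.07), or 2.36-fold lower. The 3 probe sets read the same 4 RNA samples, so their likeness shows how well the measurement of this transcript repeats and adds no animals.

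All values of Rassf4 stayed above the dim level of 3.21 in both genotypes, a percentile of these arrays that does not by itself show detection. A pseudocount of 16 on the linear scale, which damps low values, brought the differences to -0.89 on 1378321_at, -1.12 on 1374284_at and -0.85 on 1391593_at. All 3 remained negative under quantile or median scaling, with 1 array left out at a time and with the replicate block. Leaving out 1 array cannot turn the sign where the groups do not overlap. The block cannot change a difference, since each replicate number holds 1 array of each genotype. Of these settings, only the scaling could have turned the sign.

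**Figure D1:**
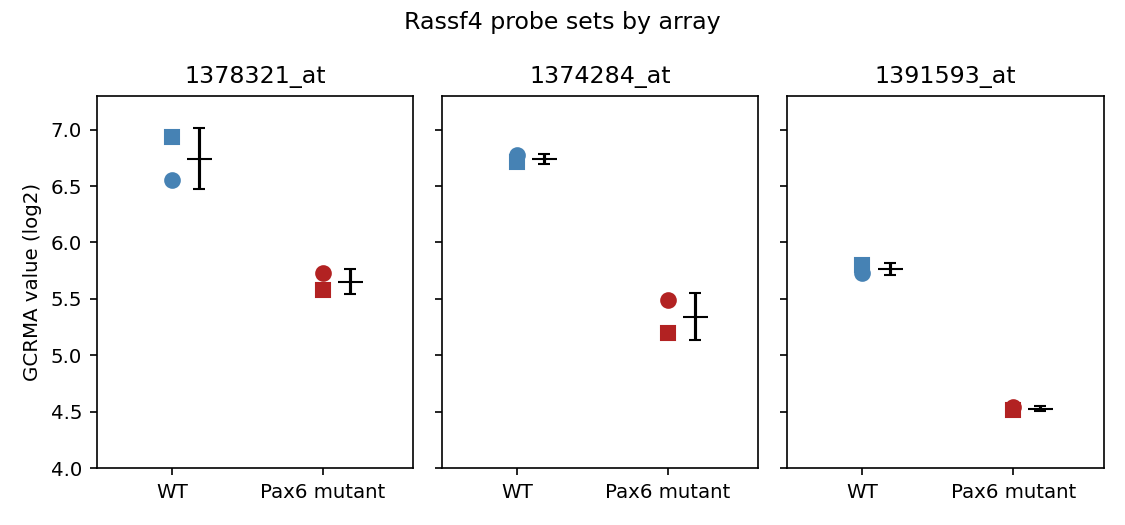
GCRMA value (log2, vertical axis, starting at 4) of the 3 Rassf4 probe sets, 1 panel each, by genotype. Circles are replicate 1, squares replicate 2, and the black bars the mean ± SD of 2 arrays; in each panel both mutant points lie below both wild-type points, by 1.09, 1.40 and 1.24 between the means.

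Among all 18625 tested probe sets ordered from the most negative difference, the Rassf4 probe sets stood at places 22 (1374284_at), 39 (1391593_at) and 55 (1378321_at). The middle 90% of tested probe sets differed by between -0.34 and 0.34, and 76.1% by no more than 0.2 in either direction. At least a 2-fold lower value in each of the 4 mutant and wild-type pairs, a difference of 1 on the log2 scale, was found for 2 of the 14 tested member probe sets, 1374284_at and 1391593_at of Rassf4, against 0.156% of all tested probe sets. The remaining Rassf4 probe set, 1378321_at, missed this limit through the pair of wild-type replicate 1 with mutant replicate 1, at -0.82. None of the 14 was higher by that much, against 0.0161% of all tested probe sets.

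**Figure D2:**
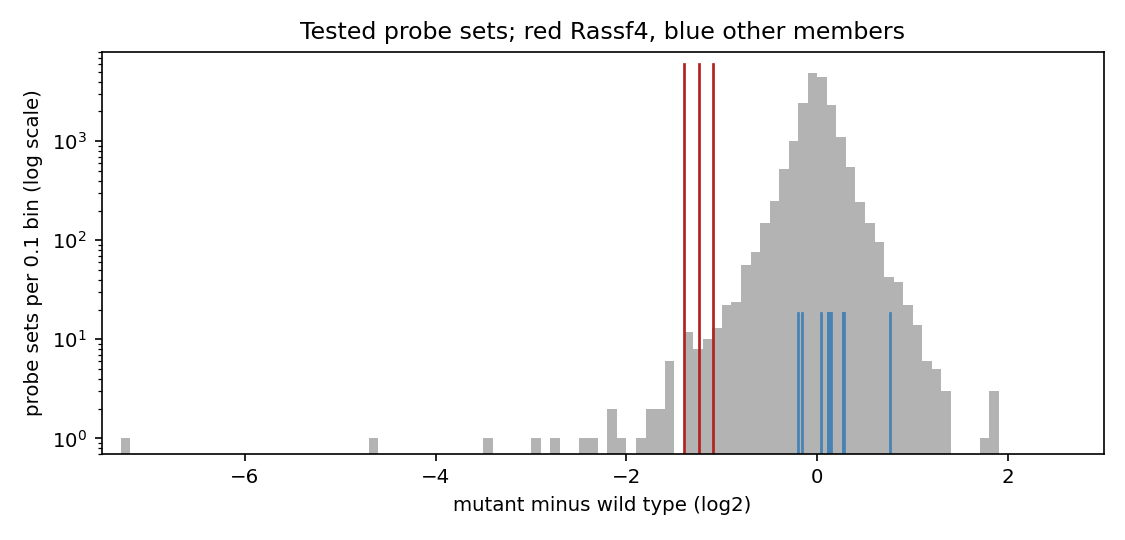
Number of tested probe sets per 0.1-wide bin (vertical axis, log scale) by the difference of mutant minus wild type (log2, horizontal axis). Red lines mark the 3 Rassf4 probe sets, at -1.40, -1.24 and -1.09 in the left tail, and short blue lines the 11 other tested member probe sets, which lie between -0.20 and 0.76.

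Some markers of surface ectoderm, the skin-forming layer around the brain, were lower in the same arrays, 3 of 5 tested by their means. The epithelial adhesion molecule Epcam was at 6.57 and 5.90 in wild type and 5.48 and 5.16 in the mutant, which is a difference of -0.92 (SE 0.30). The simple-epithelial keratin Krt18 was at 7.60 and 7.42 in wild type and 6.76 and 6.81 in the mutant, which is a difference of -0.73 (SE 0.10). Krt8 differed by -0.55 and Tfap2a by 0.05, both with overlap, and Cldn6 read 4.07 on all 4 arrays. Of the 8 markers listed, 7 were on the array. The groups did not overlap for 2, both lower, beside 12.1% of all tested genes, and 0 passed the adjusted threshold in limma, with 2 at an unadjusted p under 0.05. Summed on the linear scale, the list reached 419 and 341 in wild type against 259 and 271 in the mutant. The basal keratin Krt14 lay at the lowest value of 2.07 on all 4 arrays, and its partner Krt5 read 2.08 on all 4. Mesenchyme markers were all 8 tested, and 5 had lower means. Without overlap 3 were lower and 1 higher, beside 12.1% and 12.2% of all tested genes. Among them Pdgfra, a growth factor receptor of mesenchymal cells, differed by -0.44 and the collagen Col3a1 by -0.25. The 3 with higher means were Prrx1 (0.31) and Lum (0.11), both with overlap, and Twist1 (0.085) without. The collagen Col1a1 was lower without overlap on its brightest probe set (-0.20) and higher without overlap on its other one (0.33). Col1a2, counted among the lower, differed by -0.07 with overlap on its brightest probe set. Its other one was higher by 0.16 without overlap. The summed linear level of the mesenchyme list was 8781 and 8524 in wild type and 7213 and 8301 in the mutant. The part of these cell types in the Rassf4 difference was not tested.

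Rassf1, a scaffold that binds microtubules and Stk3 or Stk4, showed no shared direction among its probe sets. On the brightest, 1373989_at, it was at 8.92 and 9.03 in wild type and 8.72 and 8.83 in the mutant, which is a difference of -0.20 (SE 0.09) with no overlap. On 1392688_at it was at 6.79 and 6.61 in wild type and 6.95 and 6.52 in the mutant, where the mutant arrays lay on either side of wild type and the difference was 0.03 (SE 0.20). Its sign turned when wild-type replicate 2 (-0.05) or mutant replicate 1 (-0.18) was left out. A further probe set of Rassf1, 1382449_at, was dim, with 3 arrays at the same value of 2.18 and mutant replicate 1 at 2.58.

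Rassf5, known as Nore1 or RAPL and an effector of Rap1 in cell adhesion, read 3.40 on 3 arrays and 3.95 on mutant replicate 1. Its difference of 0.27 (SE 0.22) thus came from a single array and was 0 without it. The other C-terminal genes are not members and were measured beside them. Rassf3 differed by -0.01 (SE 0.11, 95% interval from -0.35 to 0.33; limma adjusted p = 1), an interval that leaves out a change of the size seen for Rassf4. Rassf2 and Rassf6 were dim, Rassf6 with 1 value, 2.11, on all 4 arrays. Of the 4 tested C-terminal genes, each by its brightest probe set, Rassf4 stood alone beyond 0.3 in either direction.

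Of the N-terminal class, Rassf7, known for a role in mitotic spindle assembly, was at 8.51 and 8.36 in wild type and 8.39 and 8.17 in the mutant. The groups overlapped, with a difference of -0.16 (SE 0.12). It was -0.05 without mutant replicate 2 and -0.27 without mutant replicate 1. Rassf8, a protein of cell junctions, was at 7.81 and 8.05 in wild type and 8.00 and 8.15 in the mutant, which is a difference of 0.15 (SE 0.13) with overlap. Without wild-type replicate 1 the difference of Rassf8 was 0.02, and without wild-type replicate 2 it was 0.27. Rassf9 and Rassf10 were dim in both genotypes. Rassf9 read 2.73 and 3.24 in wild type and 2.48 and 2.47 in the mutant, values near the bottom of the scale where differences are poorly measured.

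The core kinases and their adaptor lay slightly higher in the mutant or overlapped. Stk3 was at 9.56 and 9.57 in wild type and 9.66 and 9.70 in the mutant. The arrays of each genotype were close to each other and the groups did not overlap, with a difference of 0.12 (SE 0.07), or 1.08-fold higher. Sav1, the adaptor that joins Stk3 and Stk4 to the Lats kinases, was at 9.93 and 9.83 in wild type and 9.97 and 10.02 in the mutant on its brightest probe set, 1373284_at, a difference of 0.12 (SE 0.08), or 0.07 without wild-type replicate 2. On the Sav1 probe set 1393453_at it was at 7.32 and 7.70 in wild type and at 7.78 on both mutant arrays, a difference of 0.26 (SE 0.16), or 0.08 without wild-type replicate 1. The groups did not overlap on either Sav1 probe set, and another, 1377569_at, lay at the lowest value of 2.07 on all 4 arrays.

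Stk4 varied more between the mutant arrays than between genotypes, and on its dimmer probe set also more between the wild-type arrays. On 1373943_at it was at 9.10 and 9.19 in wild type and 9.00 and 9.52 in the mutant, which is a difference of 0.11 (SE 0.22). Without mutant replicate 2 the sign turned, to -0.15. On the dimmer 1392231_at it was at 6.54 and 8.09 in wild type and 7.53 and 8.62 in the mutant, where replicate 2 was the higher array in both genotypes and the difference of 0.76 had an SE of 0.75. Without wild-type replicate 1 that difference was -0.01.

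Lats1, the kinase that phosphorylates Yap1, was at 10.01 and 9.52 in wild type and 10.55 and 9.53 in the mutant. Here replicate 1 was the higher array in both genotypes, the groups overlapped, and the difference was 0.28 (SE 0.45), or -0.23 without mutant replicate 1. Lats2, its close relative and not a member, differed by 0.10 (SE 0.12, 95% interval from -0.25 to 0.46; limma adjusted p = 1). Mob1b, a coactivator of the Lats kinases, differed by -0.19 (SE 0.15, 95% interval from -0.65 to 0.27; limma adjusted p = 1). With wild-type replicate 2 left out, the difference was -0.0082 for Lats2 and -0.03 for Mob1b.

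Over the 14 tested member probe sets, 4 lay lower without overlap between the groups, the 3 of Rassf4 and 1 of Rassf1, against 11.8% of all tested probe sets. Another 3 lay higher without overlap, 1 of Stk3 and 2 of Sav1, against 11.4% of all tested probe sets. The other 7 overlapped. The remaining 2 of the 16 probe sets were dim. Without Rassf4, 9 of 11 means were higher and 2 lower in the mutant, in sizes from -0.20 to 0.76, beside 49.7% higher among all tested genes. The 9 count Stk4 and Sav1 with 2 probe sets each, and Rassf5, whose difference came from 1 array.

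**Figure D3:**
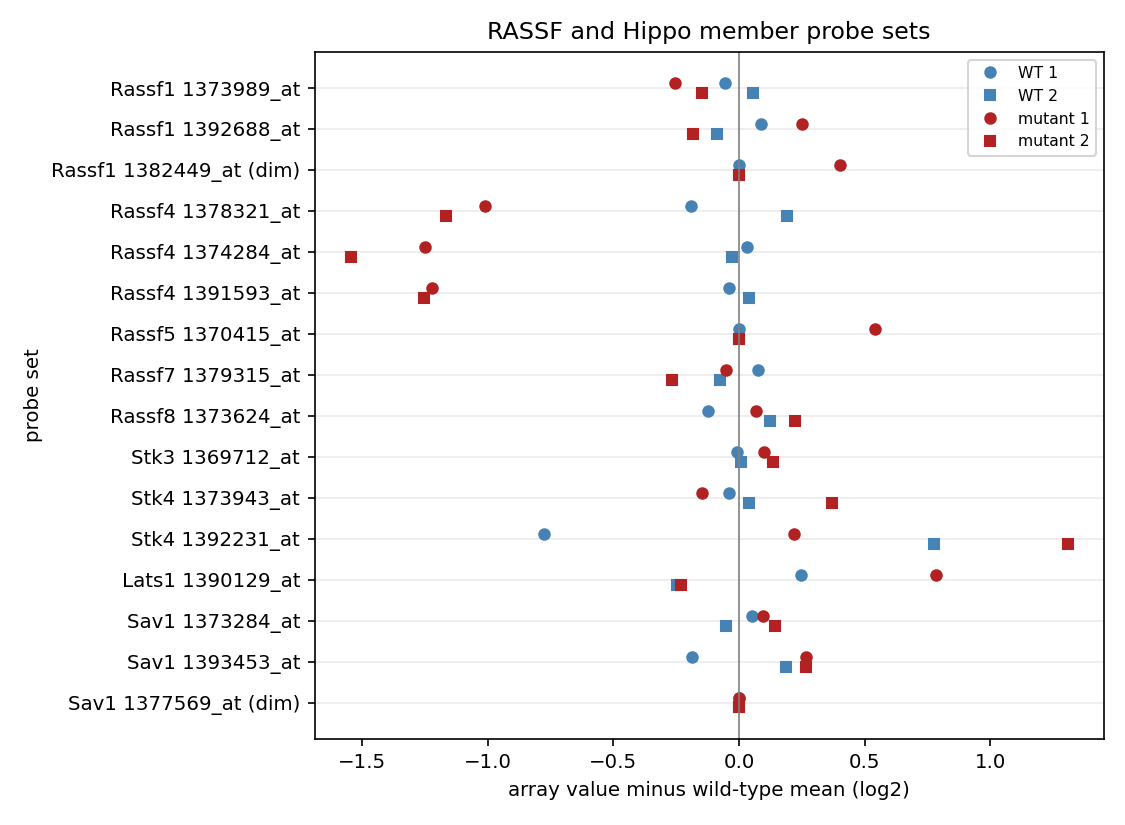
Value of each array minus the wild-type mean of that probe set (log2, horizontal axis) for the 16 member probe sets (vertical axis), with wild type in blue, mutant in red, circles for replicate 1 and squares for replicate 2; points at the same value cover each other. The mutant points of the 3 Rassf4 probe sets lie alone at the left. In both genotypes the square lies to the right of the circle for Stk4 1392231_at, and the circle to the right of the square for Lats1.

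The wider pathway was read from lists of 80 genes, of which 70 are not members. Each gene was represented by its tested probe set with the highest mean, and 57 of the 70 were tested. In limma 0 of the 57 passed an adjusted p of 0.05. At an unadjusted p under 0.05, 4 were higher, against 1.78% of all 9840 tested genes, and 1 was lower, against 1.81%. The groups did not overlap for 14 higher genes, against 12.2% of tested genes, and for 6 lower genes, against 12.1%. Their median difference was 0.05, beside 0.00 over all tested genes.

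Of 19 tested upstream regulators and scaffolds of the pathway, 17 had higher means in the mutant, beside 49.7% of all tested genes, with a median of 0.14. The groups did not overlap for 5 of the 17, beside 12.2% of tested genes. With mutant replicate 2 left out, 11 were higher and 8 lower, beside 42.9% higher among all tested genes, and the median was 0.02. With wild-type replicate 1 left out, 13 were higher and 6 lower, beside 43.3%, again with 0.02. Without wild-type replicate 2, 16 were higher and 3 lower, beside 56.1%, with a median of 0.17. Without mutant replicate 1, 18 were higher and 0 lower, beside 55.1%, with a median of 0.26. These counts use the brightest probe set of each gene. Other tested probe sets of Map4k4, Tjp1, Dchs1 and Nf2 had lower means, all with overlap. Those of Amot, Limd1, Wwc1 and Wwc2 had higher means. Mark4 counted as higher through mutant replicate 1 alone, at 4.46 against 4.42 on the other 3 arrays. Fat4, a giant cadherin that acts upstream of Hippo signalling and restrains progenitor growth in the neural tube, was at 8.12 and 8.21 in wild type and 8.85 and 8.70 in the mutant. Its difference of 0.61 (SE 0.10) had an unadjusted p of 0.00616 and an adjusted p of 1 in limma, so it missed the threshold. Amot, angiomotin, which binds Yap1 outside the nucleus, was at 11.13 and 11.16 in wild type and 11.44 and 11.60 in the mutant, which is a difference of 0.37 (SE 0.09), and its second probe set differed by 0.38. The unadjusted p of Amot was 0.0224 and the adjusted p 1 in limma.

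Ptpn14, a phosphatase that also holds Yap1 in the cytoplasm and is itself listed as a Yap1 target, was at 7.91 and 8.44 in wild type and 8.56 and 8.86 in the mutant. The difference was 0.53 (SE 0.25; limma adjusted p = 1), or 0.27 without wild-type replicate 1. A second Ptpn14 probe set, 1374774_at, differed by 0.66 (SE 0.07) without overlap, while the other 2 tested ones, dimmer, differed by 0.14 and 0. The WW-domain scaffold Wwc2 (0.11) and Amotl1 (0.18), a relative of Amot, were the other 2 upstream genes higher without overlap. Amotl1 differed by 0.08 without mutant replicate 2 and Wwc2 by 0.06 without mutant replicate 1.

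The STRIPAK complex carries the phosphatase PP2A, which removes the activating phosphate from Stk3 and Stk4. Of its 8 tested genes, 5 had lower and 3 higher means, beside 49.7% higher among all tested genes, with a median of -0.02. Slmap, the subunit that recognises Stk3 and Stk4, differed by 0.22 (SE 0.13) and the scaffold striatin Strn by 0.21 (SE 0.10), both without overlap. Slmap differed by 0.08 without mutant replicate 1 and Strn by 0.12 without wild-type replicate 2. Strn4 differed by -0.12 with overlap, and the catalytic subunit Ppp2ca by -0.07 without overlap. With mutant replicate 1 left out, Strn4 was at 0.01 and Ppp2ca at -0.01. In that setting 6 of the 8 means were higher, beside 55.1% of all tested genes. None of the 8 passed an unadjusted p of 0.05.

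Downstream, the TEAD factor Tead1, a DNA-binding partner of Yap1, was at 11.79 and 11.94 in wild type and 12.13 and 12.16 in the mutant. Its difference was 0.28 (SE 0.09), with an unadjusted p of 0.0488 and an adjusted p of 1 in limma. A second Tead1 probe set differed by 0.13 with overlap. Wwtr1, the relative of Yap1, ran from 5.57 to 6.28 in wild type and from 5.37 to 6.25 in the mutant, which is a difference of -0.11 (SE 0.45), or 0.33 without mutant replicate 1. Vgll4, which competes with Yap1 for TEAD factors, differed by -0.13 (SE 0.09) without overlap, and by -0.06 without wild-type replicate 1. Tead2, Tead3 and Tead4 overlapped.

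Genes known as targets of Yap1 and TEAD went both ways. Of 18 tested, 13 had higher means, beside 49.7% of all tested genes, and 5 lower, and the median was 0.12. The groups did not overlap for 7 higher and 4 lower targets, beside 12.2% and 12.1% of all tested genes. The window upstream of the start of Ccn2, the connective tissue growth factor and a standard readout of Yap1, is shown for the TEAD cores in it, GGAATG on either strand in capitals. It is from RefSeq on GRCr8, chr1:22624615-22624864, minus strand.

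Ccn2: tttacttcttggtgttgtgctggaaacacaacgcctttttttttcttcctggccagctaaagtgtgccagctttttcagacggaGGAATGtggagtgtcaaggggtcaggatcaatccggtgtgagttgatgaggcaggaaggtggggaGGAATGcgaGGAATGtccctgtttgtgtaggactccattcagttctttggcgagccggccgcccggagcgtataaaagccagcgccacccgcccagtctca

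The cores in Ccn2 begin 166, 101 and 92 bases before the start. The table held windows for 13 of the 20 targets, and 6 of these held at least 1 TEAD core (Ccn1, Ccn2, Amotl2, Ajuba, Ptpn14 and Nuak2), beside the 12.1% of all windows. It held windows for 7 of the 10 members, and Rassf1, Rassf7, Sav1 and Yap1 held a TEAD core. Rassf1 held it in 1 of its 2 windows. A gene was counted if any of its windows held the core, whereas the 12.1% is a share of windows.

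Ccn2 itself was at 11.03 and 11.21 in wild type and 10.63 and 11.00 in the mutant. The mutant arrays lay just below wild type, with a difference of -0.30 (SE 0.17; limma adjusted p = 1), or -0.12 without mutant replicate 1. The coagulation factor receptor F3 differed by -0.42 (SE 0.12; limma unadjusted p = 0.0369, adjusted p = 1). Gadd45a, a stress-response gene, differed by -0.33 (SE 0.16), or -0.16 without wild-type replicate 2. Birc5, the mitotic protein survivin, differed by -0.16 (SE 0.09), or -0.09 without wild-type replicate 2.

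On the other side, the G1 cyclin Ccnd1 was at 12.28 and 12.70 in wild type and 12.81 and 13.03 in the mutant, which is a difference of 0.43 (SE 0.20; limma adjusted p = 1), or 0.22 without wild-type replicate 1. Its other 2 probe sets differed by 0.44 and 0.46, also without overlap. The growth factor Tgfb2 differed by 0.46 (SE 0.22), or 0.21 without mutant replicate 2, and the membrane protein Crim1 by 0.50 (SE 0.41) with overlap, or 0.07 without wild-type replicate 1. Ankrd1, a nuclear ankyrin-repeat protein, differed by 0.34 (SE 0.11; limma unadjusted p = 0.0471, adjusted p = 1), but its values lay between 3.36 and 3.84, and with the pseudocount the difference was 0.15. Ccn1 was dim.

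The small GTPases that RASSF proteins can bind overlapped in all 5 tested genes. Nras differed by -0.11 (SE 0.12), Rap1b by -0.02 (SE 0.07) and Rras by 0.28 (SE 0.39), the last by -0.20 without mutant replicate 2. The signs of the others turned too, to 0.0084 for Nras with mutant replicate 1 left out and to 0.0074 for Rap1b with wild-type replicate 1 left out.

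Most or all tested markers of blood, vessels and telencephalic neuroepithelium also had higher means in the mutant arrays, as had Fat4, Amot and Ccnd1. Over all tested genes, 49.7% had higher means, and 12.2% were higher without overlap. All 7 tested erythroid markers had higher means, 6 without overlap, with a median difference of 0.61. The summed linear level of the list was 66970 and 67770 in wild type and 77490 and 78050 in the mutant. By their brightness the globins Hbe1 and Hbz weigh most in this sum, and they differed by only 0.22 and 0.18. All 7 tested endothelial markers had higher means, 3 without overlap, with summed levels of 2821 and 2815 in wild type and 3098 and 3649 in the mutant. Of the 7 tested neuroepithelium markers, 6 had higher means, and 3 were higher and 1 lower without overlap. Their summed levels were 41830 and 40860 in wild type and 46110 and 45220 in the mutant. Neuron markers went both ways. Of 7 tested, 3 had higher and 4 lower means, with 2 higher and 1 lower without overlap. The summed levels of the neuron list were 1983 and 2331 in wild type and 1954 and 1930 in the mutant. The part of these cell types in the pathway differences was not tested.

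**Figure D4:**
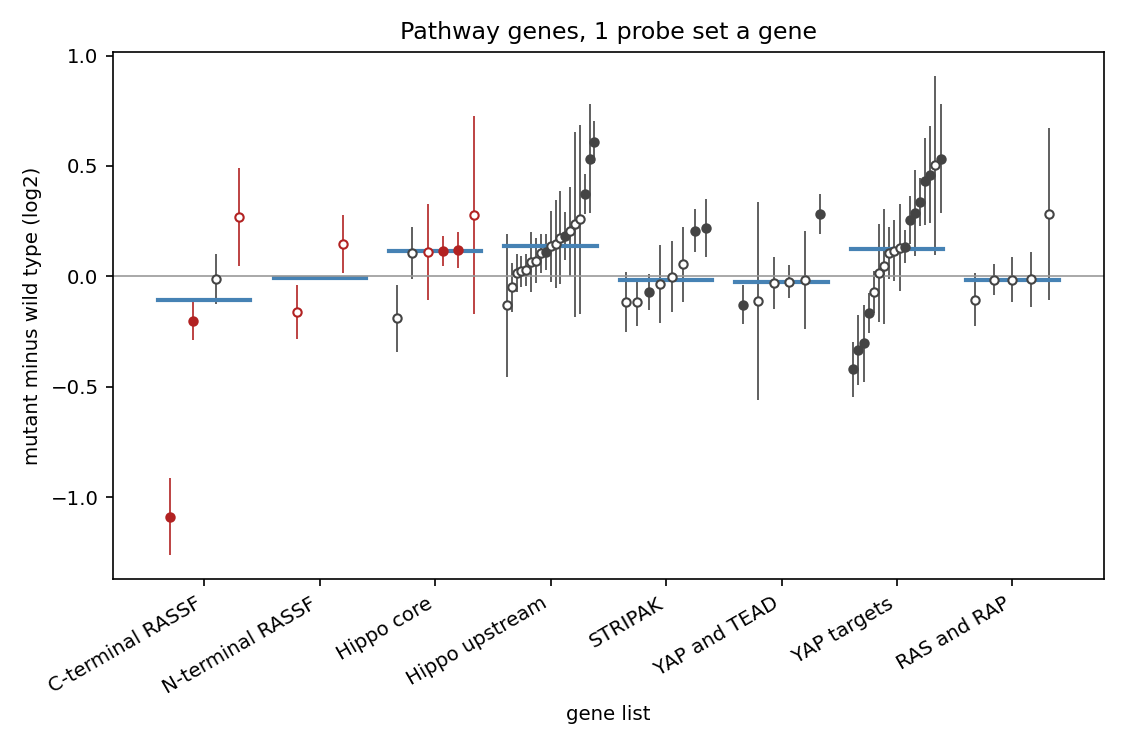
Difference of mutant minus wild type (log2, vertical axis) for each tested gene of the 8 pathway lists (horizontal axis), by its brightest tested probe set, with the moderated SE as bars and the list median in blue. Members are red, filled points have groups that do not overlap; Rassf4 at -1.09 lies apart from all other points, which run from -0.42 to 0.61.

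The array profile nearest to that of Rassf4 was sought among 9839 other tested genes by the Euclidean distance between their 4 values, each centred on the mean of the gene. The nearest 10 were Mfsd10 (distance 0.22), Tnfaip8l1, Cd82, Mgarp, Filip1, Chn2, Alkbh2, RT1-N2, Parm1 and Upp1 (0.33). For comparison, the Rassf4 probe sets lay between 0.27 and 0.45 from one another, and 24 genes lay nearer to the brightest one than that upper distance. A small distance requires a lower mutant value, so the shared direction is given by the choice.

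Mfsd10, a membrane transporter, was at 7.41 and 7.83 in wild type and 6.39 and 6.25 in the mutant, which is a difference of -1.30. Filip1, which binds filamin and is known from the start of cortical neuron migration, was at 9.73 and 9.76 in wild type and 8.76 and 8.66 in the mutant, which is a difference of -1.03. The tetraspanin Cd82 was at 4.66 and 5.27 in wild type and 4.15 and 3.80 in the mutant, which is a difference of -0.99. In these 3 genes, as in Rassf4 on 1378321_at, wild-type replicate 2 was the highest array and mutant replicate 2 the lowest. The choice by distance favours this order too, and on the Rassf4 probe set 1374284_at wild-type replicate 1 was the highest array. RT1-N2 belongs to a family of near-identical histocompatibility genes, so its probe set may read relatives too, and the mutant values of Parm1 lay under the dim level.

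**Figure D5:**
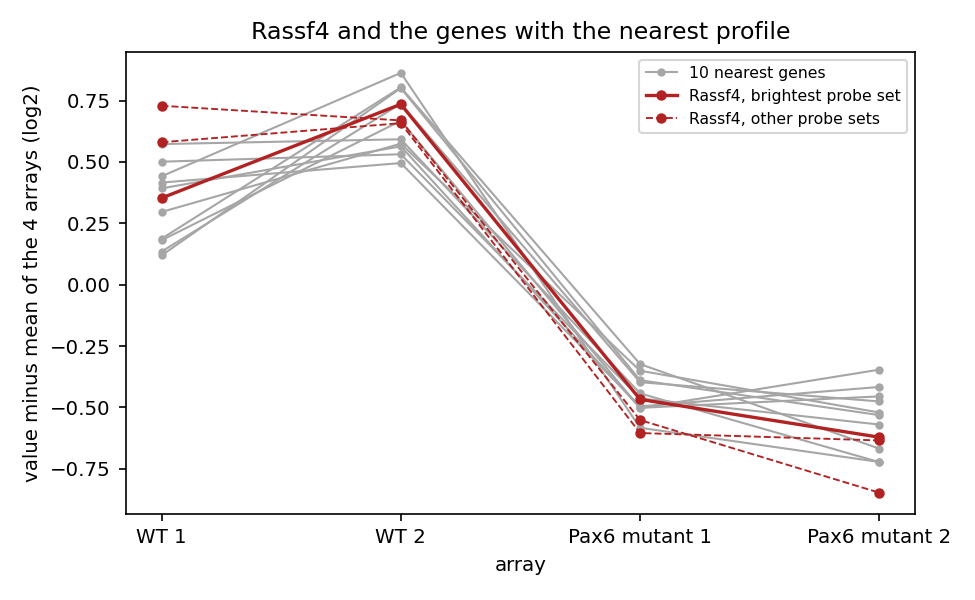
Value minus the mean of the 4 arrays (log2, vertical axis) by array (horizontal axis) for the brightest Rassf4 probe set (thick red), the other 2 Rassf4 probe sets (dashed red) and the 10 nearest genes (grey). All lines drop from the wild-type to the mutant arrays; the other Rassf4 probe sets lie higher than the brightest one on wild-type replicate 1.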

How the data were processed

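The deposited table holds 1 log2 value per probe set and array, made by the authors with GCRMA (background correction by probe sequence, normalization between arrays, summary per probe set), per the submitters' processing notes; its version is not given in the labels. That the scale is log2 follows from their range. The table has 31099 probe sets, 57 of them controls that were set aside. Of the other 31042, the platform annotation gave 1 symbol to 20826, several to 436 and none to 9780; Entrez identifiers of 20758 matched RefSeq, and 0 symbols changed. Dim probe sets (12417, mean under the 40th percentile) were not tested. limma 3.58.1 in R 4.3.3 (lmFit, eBayes) fitted genotype on the 4 arrays, and p-values were adjusted over all 18625 tested probe sets. Differences are mutant minus wild type. The procedure was tested on simulated data.

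The members and gene lists were chosen with earlier results of these data known. Named were all member probe sets, list genes with a difference of at least 0.3 and no overlap, the first 3 by size per list, Pax6, and the 10 profiles nearest to Rassf4. The RASSF genes that are not members, Lats2, Wwc2, Amotl1, Ppp2ca, Birc5, Ccn1 and the overlapping TEAD genes were named after their values were seen. The same holds for Map4k4, Tjp1, Dchs1, Nf2, Limd1, Wwc1, Mark4, single markers and second probe sets. Alternatives were quantile and median scaling, a pseudocount of 16, no filter and a 60th percentile filter, a replicate block, a robust variance trend, gene means over probe sets and each array left out.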

Additional observations from a re-analysis of the deposited data

How the results depend on the processing

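With 2 arrays per genotype the spread of a single probe set is poorly known, and differences near the lowest GCRMA value are not measured. Against 0 probe sets past an adjusted p of 0.05 in limma, quantile normalization gave 2, median centring 2 and the stricter filter 1, with 0 members among them; the other alternatives gave 0. With the replicate number as a block 0 passed as well (1194 at an unadjusted p under 0.05, against 680). The Rassf4 difference on its brightest probe set was again -1.09, since this block cannot change a difference. The replicate 1 deviations of the 2 genotypes correlated at 0.43 over 18625 probe sets; the labels give no shared litter or day, so the block was not used as the main fit. Of the 57 pathway genes that are not members, between 8 and 21 were lower and between 18 and 32 higher without overlap when 1 array was left out, against 6 and 14 with all 4; fewer arrays make an overlap rarer by construction. The 3 Rassf4 probe sets kept their sign under every alternative that gave a value. Where the groups do not overlap, leaving out 1 array cannot turn the sign. Of the other 11 member probe sets, 5 lost or turned their sign when 1 array was left out, all 5 with overlapping groups. The stricter filter left out all 3 Rassf4 probe sets.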
